A study of Mus musculus with 6 samples.

Results

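The genes described here are 9 chemokine receptors, Ccr1, Ccr2, Ccr6, Ccr9, Cx3cr1, Cxcr3, Cxcr4, Cxcr5 and Ccrl2, picked by gene symbol out of 24062 genes with a row in every library. All 9 had counts, and 7 of them passed the filter on low counts, as 13155 genes did in all. Ccr9 and Cxcr3 did not pass and were not tested. Each of the 7 had at least 21 counts in every library of both groups. The libraries were polyA RNA-seq of bone marrow from C57BL/6J mice, grown in medium with GM-CSF at 20 ng/ml and fed on days 3, 6 and 10. Low tension samples grew on a substrate of 2 kPa and high tension samples on one of 50 kPa, with 3 samples each, and the titles call all of them dendritic cells. The study asked how a static stiffness alters transcription in such a culture. No sort is named in the labels, so each level is an average over all cells of a sample, in which fewer cells of a type and less RNA per cell cannot be told apart.

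Chemokine receptors are membrane-spanning proteins that couple to inhibitory G proteins and steer leukocytes along gradients of small secreted proteins, the chemokines. Monocytes leave the marrow through CCR2, neutrophils and B cell precursors are held there by CXCR4, and B cells find follicles through CXCR5. Dendritic cells change their receptors as they mature, losing inflammatory ones and gaining CCR7, which takes them to lymph nodes. CCRL2 differs from the others in that it binds the attractant chemerin without coupling to G proteins. These are background facts and not results of these data.

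No receptor gene passed the test for a difference between 2 kPa and 50 kPa, and the genes fell into 3 patterns by their values. Ccr1 and Ccr2, abundant receptors of inflammatory monocytes and macrophages, stood at nearly the same mean level on both substrates, 365 ± 44.1 and 360 ± 37.4 CPM for Ccr1 and 172 ± 50.9 and 169 ± 19.6 CPM for Ccr2 (mean ± SD, n = 3). Cxcr4, Ccr6, Cxcr5 and Ccrl2 had lower means at 50 kPa, from 1.73-fold lower for Cxcr4 to 3.73-fold for Ccrl2. Cx3cr1, the fractalkine receptor, had a mean 1.45-fold higher at 50 kPa. CPM are counts per M of the library size scaled by trimmed mean of M-values (TMM) factors, and fold changes are 50 kPa over 2 kPa on the log2 scale with their standard error.

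With edgeR's quasi-likelihood test and Benjamini-Hochberg adjustment over all 13155 genes, 0 of the 7 tested receptors were higher and 0 lower at an adjusted p under 0.05. Of all tested genes 3.45% were called, 1.47% higher and 1.98% lower. At an unadjusted p under 0.05 edgeR gave 1 receptor higher and 4 lower, beside 27.8% of all tested genes in either direction. DESeq2 called 4 of the 7, Ccr6, Cxcr4, Cxcr5 and Ccrl2, all lower, where it called 18.0% of all genes and 9.51% lower, and limma-voom called 0. The groups did not overlap in 3 of the 7 receptors, a property of 34.1% of all tested genes. The 7 had a median log2 fold change of -0.79, beside -0.03 for all tested genes.

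The libraries held 33.8 M to 36.3 M counts, and 1 count was worth 0.024 to 0.0311 CPM. In a principal component analysis the first axis carried 67.9% of the variance. On this axis 1 library of each group, replicate 1 at 2 kPa (-13.1) and replicate 3 at 50 kPa (8.06), stood between the other 2 kPa libraries (-57.4 and -51.5) and the other 50 kPa libraries (54.5 and 59.5). High tension replicates 1 and 2 differed far less from each other than any other pair did, since their chi-square over genes, divided by its degrees of freedom, was 6.71 against 122 to 418. Nothing in the labels shows that replicates were separate cultures or animals, so p-values speak only of the spread among these 6 libraries, some or all of which may be technical. All 9 markers listed as defining dendritic cells had counts. Their summed level was 5320 to 11400 CPM at 2 kPa and 14700 to 23300 CPM at 50 kPa. EdgeR called 0 of them (4 higher and 1 lower at an unadjusted p under 0.05). Cd74 alone made up 43.1% to 54.5% of that sum. By log2 fold change 7 of the 9 were positive and 2 negative, Flt3 (7.33 ± 2.71 and 2.78 ± 1.05 CPM) and Zbtb46 (10.8 ± 1.68 and 8.4 ± 1.67 CPM). These 3 genes were named after their values were seen. Markers of neutrophils were present too, at 3700 to 7480 CPM and 825 to 1600 CPM summed over 10 genes, of which 6 fell.

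**Figure D1:**
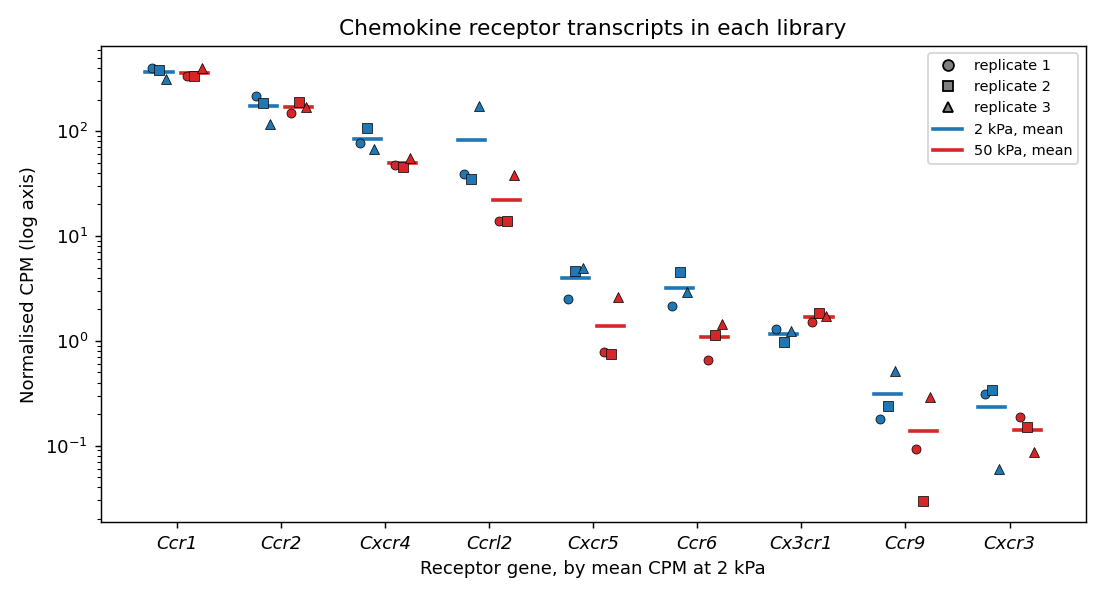
Normalised CPM on a log axis for the 9 receptor genes, ordered by their mean at 2 kPa, with a point for each library (shape gives the replicate number) and a bar at each group's mean. Ccr1 and Ccr2 sit at the same height in both groups, Cxcr4 and Ccr6 are lower in every 50 kPa library, and the mean of Ccrl2 at 2 kPa is raised by the library at 173 CPM.

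The promoters of 8 of the 9 genes were found in RefSeq on GRCm38.p6, from 250 bases before to 50 bases after each of 11 annotated starts; Cxcr5 had no entry. Windows are printed for Cxcr4 and Ccr6, whose groups did not overlap, and for Ccrl2, whose level varied most between libraries. The groups of Cx3cr1, with its higher mean at 50 kPa, did not overlap either, but its window is not printed. Capitals mark matches, on either strand, to 8 short motifs: TEAD (GGAATG), NF-kB (GGANTTTCC), PU.1 (GAGGAA), E-box (CAGCTG), interferon response (GAAANNGAA), hypoxia response (ACGTG), Sp1 (GGGCGG) and TATA box (TATAAA). Sequences run from 5′ to 3′ on the gene's strand. Cxcr4 lies at chr1:128592250-128592549 (minus strand), the first start of Ccrl2 at chr9:111057469-111057768 (minus strand) and the first start of Ccr6 at chr17:8235793-8236092 (plus strand).
Cxcr4: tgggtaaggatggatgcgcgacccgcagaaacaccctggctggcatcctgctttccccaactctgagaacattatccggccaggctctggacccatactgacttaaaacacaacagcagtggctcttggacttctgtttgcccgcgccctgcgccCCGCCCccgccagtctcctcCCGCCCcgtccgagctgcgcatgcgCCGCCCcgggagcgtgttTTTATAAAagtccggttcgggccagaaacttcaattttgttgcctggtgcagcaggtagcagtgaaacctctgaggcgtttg
Ccrl2: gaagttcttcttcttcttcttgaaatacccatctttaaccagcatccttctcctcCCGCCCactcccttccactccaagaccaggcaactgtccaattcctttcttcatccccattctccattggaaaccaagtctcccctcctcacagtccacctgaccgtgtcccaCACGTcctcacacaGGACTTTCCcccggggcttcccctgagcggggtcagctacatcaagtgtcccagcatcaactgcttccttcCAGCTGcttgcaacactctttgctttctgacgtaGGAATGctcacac
Ccr6: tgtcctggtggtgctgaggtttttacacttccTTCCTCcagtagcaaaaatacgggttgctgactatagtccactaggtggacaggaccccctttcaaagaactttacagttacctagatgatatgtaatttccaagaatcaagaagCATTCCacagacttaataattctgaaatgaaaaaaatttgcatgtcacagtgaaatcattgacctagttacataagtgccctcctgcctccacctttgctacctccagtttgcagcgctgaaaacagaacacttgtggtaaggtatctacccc

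The Cxcr4 window held 3 Sp1 matches, 95, 75 and 50 bases before the start, and a pair of overlapping TATA box matches on opposite strands, 32 and 30 bases before it. Its G and C content was 59.3%, the highest of the 11 windows, and it held no match to the other 6 motifs. The first Ccrl2 window held an NF-kB match 68 bases before the start, a hypoxia response match 82 bases and an Sp1 match 195 bases before it, and an E-box and a TEAD match after it. In the first Ccr6 window a TEAD match stood 103 bases and a PU.1 match 218 bases before the start. Among 32851 promoter windows of all genes, 1.25% held the NF-kB motif, 14.7% TEAD, 28.3% PU.1, 16.3% E-box, 8.56% interferon response, 19.6% hypoxia response, 35.7% Sp1 and 13.6% TATA box. The 2 further Ccrl2 windows, which overlap the first and each other in position, held TEAD, E-box and hypoxia response matches, and the second Ccr6 window held 1 hypoxia response match. Of the other windows not printed, those of Ccr1 and Cxcr3 held 1 PU.1 match, that of Cx3cr1 1 E-box match and that of Ccr2 1 interferon response match, and that of Ccr9 held none of the 8. Matches are descriptions of letters and not of bound sites.

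In the GENCODE vM21 annotation of GRCm38, 6 of the genes lie on chromosome 9. Ccr1 (123962124 to 123968692, minus strand), Ccr2 (124101950 to 124113557, plus strand) and Ccr9 (123678439 to 123784330, plus strand) stand in a cluster of receptor genes. Cx3cr1 (119901616 to 120069879, minus strand), Cxcr5 (44511787 to 44561877, minus strand) and Ccrl2 (111054486 to 111057519, minus strand) lie apart from it. Ccrl2 has Ltf, the lactoferrin gene of neutrophil granules, as its nearest coding neighbour, 11718 bases away and with no shared exon. Cxcr4 lies on chromosome 1 (128588199 to 128592293, minus strand), Ccr6 on chromosome 17 (8236043 to 8257141, plus strand) and Cxcr3 on the X chromosome (101731535 to 101734269, minus strand). Exons of Cxcr5, Cx3cr1 and Ccr9 overlap exons of genes on the opposite strand, and whether the counting used strand was not stated in any label. Of all 50-base words in their transcripts, Ccr9 shared 20.1%, Ccr2 1.91%, Cxcr5 1.86% and Cx3cr1 1.06% with transcripts of other genes, so their values may hold some reads of those genes. Ccr1, Ccr6, Cxcr3, Cxcr4 and Ccrl2 shared 0%.

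Levels of different genes were compared per kb of exon, as CPM divided by the summed exon length in GENCODE, which may not be the annotation of the counts. At 2 kPa Ccr1 was highest, at 129 ± 15.6 CPM per kb. It was followed by Cxcr4 at 46.8 ± 11.5, Ccrl2 at 31.7 ± 30.3 and Ccr2 at 25.5 ± 7.53 CPM per kb. The values of Cxcr4 and Ccrl2, and those of Ccrl2 and Ccr2, overlapped between libraries. Much lower stood Ccr6 (1.38 ± 0.519 CPM per kb), Cxcr5 (1.20 ± 0.397), Cx3cr1 (0.259 ± 0.0361), Cxcr3 (0.136 ± 0.0881) and Ccr9 (0.0303 ± 0.0172). In this lower range Ccr6 overlapped Cxcr5, and Cxcr3 overlapped Ccr9. At 50 kPa Ccr1 (127 ± 13.2 CPM per kb) was again highest. Cxcr4 (27.2 ± 2.91) and Ccr2 (25 ± 2.88), whose values overlapped, now stood above Ccrl2 (8.47 ± 5.47 CPM per kb). The means of Ccr6 (0.465 ± 0.173), Cxcr5 (0.416 ± 0.324) and Cx3cr1 (0.376 ± 0.0368 CPM per kb) lay close together, and their values overlapped. Cxcr3 (0.0814 ± 0.0292) and Ccr9 (0.0134 ± 0.0132 CPM per kb) were lowest.

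Ccr1 encodes a receptor for CCL3, CCL5 and CCL9 on monocytes, macrophages and neutrophils. It was 396, 384 and 314 CPM in the 2 kPa replicates 1 to 3 and 339, 339 and 404 CPM in the 50 kPa replicates. The groups overlapped from 339 to 396 CPM, and the lowest and the highest library were both a replicate 3, at 2 kPa and 50 kPa. Its log2 fold change was -0.02 ± 0.14 (edgeR adjusted p = 0.945). Ccr2, the receptor for CCL2, CCL7 and CCL12 that brings classical monocytes into tissue, was 215, 186 and 116 CPM at 2 kPa and 150, 189 and 169 CPM at 50 kPa. Both the highest and the lowest value belonged to 2 kPa libraries. The log2 fold change of Ccr2 was -0.03 ± 0.24 (edgeR adjusted p = 0.949). The sign of these changes near 0 was not stable, running over the alternatives from -0.16 to 0.05 for Ccr1 and from -0.24 to 0.17 for Ccr2. Beside Ccr2, 2 of 9 classical monocyte markers fell and 0 rose by edgeR (2 higher and 3 lower at an unadjusted p under 0.05), and the list had a median log2 fold change of -1.17. Its summed level was 2740 to 3980 CPM at 2 kPa and 4010 to 4310 CPM at 50 kPa, with no marker at 0 in all libraries. Chil3, a secreted chitinase-like protein, made up 48.6% to 78.7% of that sum in each library, and without it the other 8 markers summed to 1030 to 2040 CPM at 2 kPa and 918 to 1830 CPM at 50 kPa, so the higher sum at 50 kPa rested on this gene. The part of monocyte numbers in the Ccr2 values was not tested.

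Cx3cr1 encodes the receptor for membrane-bound fractalkine, carried by patrolling monocytes and resident macrophages. Its level was low, 1.29, 0.983 and 1.23 CPM at 2 kPa and 1.52, 1.85 and 1.71 CPM at 50 kPa, from 41 to 62 counts per library. Every 50 kPa library was above every 2 kPa library. The log2 fold change was 0.53 ± 0.22 (edgeR adjusted p = 0.172) and lay between 0.41 and 0.62 over 15 alternatives, none of which called it. Some of these alternatives called 0 genes in all. Macrophage markers, a list on which edgeR called 0 of 10 genes (6 higher and 0 lower at an unadjusted p under 0.05), summed to 1690 to 3760 CPM at 2 kPa and 4870 to 5920 CPM at 50 kPa, with none at 0. Their part in the Cx3cr1 values was not tested.

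Cxcr4, the receptor for the stromal chemokine CXCL12 that retains cells in the marrow, was the most abundant of the receptors whose groups did not overlap. It was 77.9, 108 and 67.9 CPM at 2 kPa and 47.1, 45.2 and 55.1 CPM at 50 kPa. The highest value belonged to low tension replicate 2, and the 50 kPa libraries lay close together. Its mean went from 84.8 ± 21.1 to 49.1 ± 5.27 CPM, a log2 fold change of -0.79 ± 0.19 (edgeR adjusted p = 0.0724; DESeq2 adjusted p = 0.00392). EdgeR did not call it under any of the other scalings and filters or with any library left out. Of these fits, those without high tension replicate 1 or 2 called 0 genes in all. Those without low tension replicate 2 or 3 called 1 and 3 genes. The log2 fold change of Cxcr4 lay between -0.95 and -0.57 over all 16 alternatives. Neutrophils and their precursors carry this receptor. Beside it 6 of 10 neutrophil markers fell and 0 rose, none was at 0, and their part in the Cxcr4 values was not tested.

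Ccr6 and Cxcr5 are receptors of mature B cells, and CCR6 is also carried by some dendritic cells and T cells. Ccr6, the receptor for CCL20, was 2.15, 4.51 and 2.91 CPM at 2 kPa and 0.653, 1.13 and 1.45 CPM at 50 kPa, from 21 to 188 counts per library. The groups did not overlap. Its log2 fold change was -1.56 ± 0.40 (edgeR adjusted p = 0.0803; DESeq2 adjusted p = 0.00469), and it lay between -1.82 and -1.23 over 15 alternatives. Cxcr5, the receptor for the follicle chemokine CXCL13, was 2.48, 4.61 and 4.90 CPM at 2 kPa and 0.778, 0.746 and 2.63 CPM at 50 kPa. Here high tension replicate 3 stood above low tension replicate 1, so the groups overlapped. The log2 fold change of Cxcr5 was -1.52 ± 0.56 (edgeR adjusted p = 0.149; DESeq2 adjusted p = 0.0493), and without high tension replicate 3 it was -2.38 (edgeR adjusted p = 0.05, just under the threshold).

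Of 10 B cell markers 7 fell and 0 rose beside these receptors. Cd79a, a signalling chain of the B cell receptor, was 36.2, 68.1 and 39.5 CPM at 2 kPa and 4.11, 2.15 and 7.70 CPM at 50 kPa. The list summed to 88.1 to 129 CPM at 2 kPa and 49.9 to 54.6 CPM at 50 kPa. That sum includes Cd22, an inhibitory lectin, at 15.3 ± 6.88 and 39.4 ± 6.37 CPM (edgeR adjusted p = 0.0811), the only marker of the list with a higher mean at 50 kPa, named after its values were seen. Without Cd22 the other 9 summed to 66.4 to 121 CPM at 2 kPa and 8.37 to 17.1 CPM at 50 kPa. Vpreb3, a marker of B cell precursors, had 0 counts in high tension replicates 1 and 2. Low tension replicate 2 had the highest summed level and the highest Ccr6 level, and low tension replicate 3 the highest Cxcr5 level. Cxcr5 was 2.63 CPM in high tension replicate 3 and 2.48 CPM in low tension replicate 1. The B cell list summed to 49.9 and 88.1 CPM in these libraries, so Cxcr5 did not follow it there. The part of B cell numbers in the Ccr6 and Cxcr5 values was not tested.

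Ccrl2 had the largest mean difference and the widest spread of the tested receptors. It was 38.7, 35.0 and 173 CPM in the 2 kPa replicates 1 to 3 and 13.8, 13.8 and 38.4 CPM in the 50 kPa replicates. Low tension replicate 3 stood far above all others, and high tension replicate 3 was level with the other 2 kPa libraries, so the groups overlapped. The log2 fold change was -1.90 ± 0.76 (edgeR adjusted p = 0.172; DESeq2 adjusted p = 0.0383). Without low tension replicate 3 it was -0.74, and without high tension replicate 3 it was -2.57, neither called. The first of these fits called 3 genes in all. Migratory dendritic cell markers, of which edgeR called 0 of 7 (0 higher and 5 lower at an unadjusted p under 0.05), summed to 2260, 3300 and 5550 CPM at 2 kPa and 1330, 1270 and 2070 CPM at 50 kPa, with none at 0. The highest library of each group was the same for this list and for Ccrl2, and the part of such cells in the Ccrl2 values was not tested. The neighbouring Ltf was 310, 485 and 385 CPM at 2 kPa and 25.3, 32.5 and 63.6 CPM at 50 kPa. It was called lower (-3.28 ± 0.40, edgeR adjusted p = 0.0296). Replicate 3 was its highest library at 50 kPa, as for Ccrl2, but replicate 2 was its highest at 2 kPa.

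Ccr9 and Cxcr3 were close to the limit of detection. Ccr9, which takes T cells and plasmacytoid dendritic cells to the gut and thymus, had 7, 10 and 17 counts at 2 kPa and 3, 1 and 10 counts at 50 kPa. Cxcr3, a receptor of activated T cells, NK cells and plasmacytoid dendritic cells, had 12, 14 and 2 counts at 2 kPa and 6, 5 and 3 counts at 50 kPa. Groups overlapped in both genes. Without a low-count filter edgeR gave log2 fold changes of -1.11 for Ccr9 (adjusted p = 0.412) and -0.75 for Cxcr3 (adjusted p = 0.515), and a difference was not detectable at this depth. Siglech, a defining marker of plasmacytoid dendritic cells, averaged 0.211 ± 0.200 CPM in the 2 kPa libraries and 0.554 ± 0.255 CPM in the 50 kPa libraries. Of 8 tested markers of these cells Cox6a2 rose, from 0.218 to 1.04 CPM on average, and Ly6d fell. The 9 listed summed to 408 to 896 CPM at 2 kPa and 298 to 805 CPM at 50 kPa, but Bst2, an interferon-induced protein of many cell types, made up 61.7% to 85.8% of that sum, and Klk1 had 0 counts in 3 libraries. Of 8 tested T and NK cell markers 1 rose and 0 fell, and the 10 listed summed to 6.34 to 12.9 CPM at 2 kPa and 8.09 to 12.1 CPM at 50 kPa. Without Nkg7, its most abundant gene, the T and NK cell list summed to 4.18 to 7.12 CPM and 7.26 to 11.6 CPM. Both sums include Cd4, the marker that rose, at 0.543, 0.336 and 0.541 CPM at 2 kPa and 3.08, 4.78 and 2.95 CPM at 50 kPa. Of the 8 tested, 4 had a positive and 4 a negative log2 fold change, with a median of 0.05. The part of these cells in the Ccr9 and Cxcr3 counts was not tested.

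**Figure D2:**
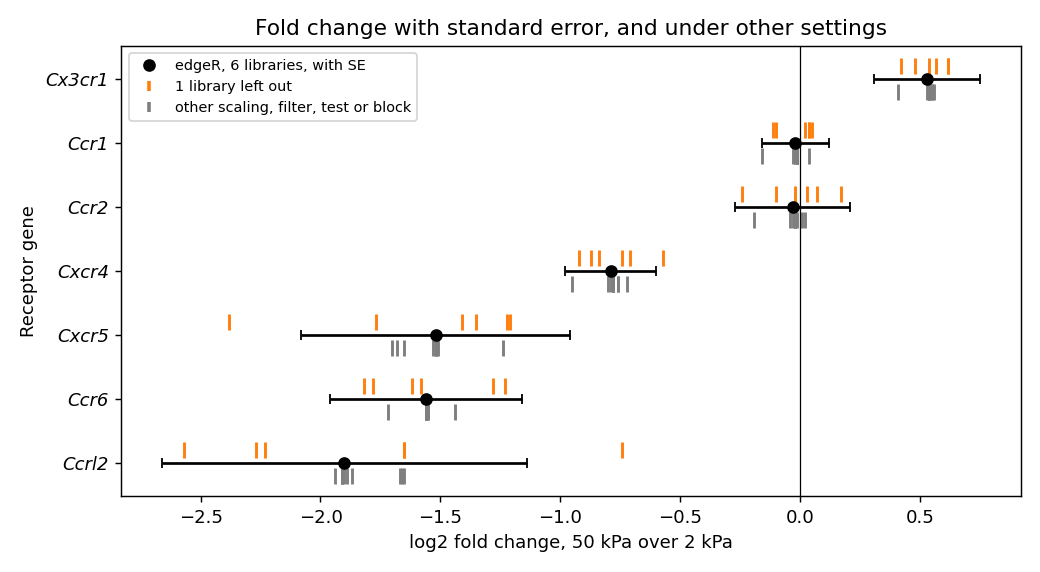
Log2 fold change of the 7 tested receptor genes, 50 kPa over 2 kPa, with its standard error from edgeR on 6 libraries (black), the values with 1 library left out (orange ticks) and those under other scalings, filters, tests or the replicate block (grey ticks). Ccr1 and Ccr2 straddle 0, Cx3cr1 stays above it, and Ccrl2 moves from -0.74 to -2.57 with the library left out.

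**Figure D3:**
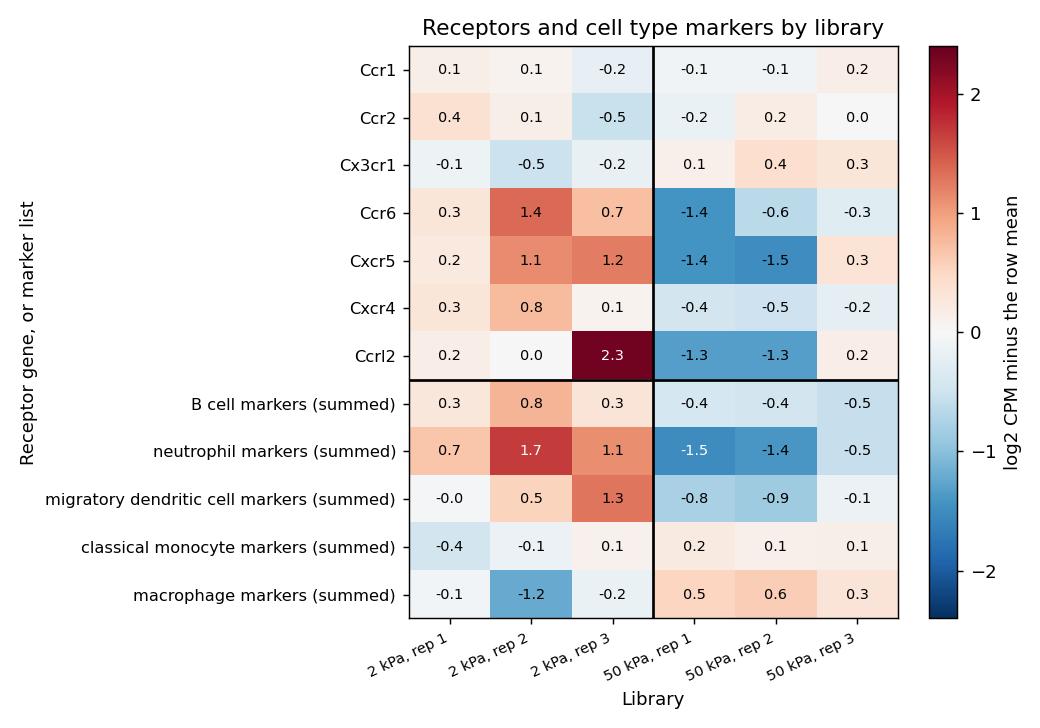
Log2 CPM minus the row's mean over 6 libraries, for 7 receptor genes (top) and for the summed CPM of 5 marker lists (bottom), with columns for the libraries and the 2 stiffnesses separated by a line. Ccr6, Cxcr5 and Cxcr4 are above their mean in every 2 kPa library, Ccrl2 stands at 2.32 in low tension replicate 3, and neutrophil markers are above their mean in the 2 kPa libraries.

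Among themselves the receptors varied in groups over the 6 libraries, which share the contrast of stiffness and the order of the first component. Pearson's r of log2 CPM was 0.91 between Ccr6 and Cxcr4, 0.90 between Ccr6 and Cxcr5, 0.85 between Cxcr5 and Ccrl2 and 0.73 between Ccr1 and Ccr2. Cx3cr1 ran opposite to Cxcr4, with r = -0.93. Among 9735 other genes with a mean of at least 5 CPM, those most like Cxcr4 were Fam73a, Il1r2 and Tarbp2 (r = 0.998, 0.997 and 0.997). For Ccr6 they were Zfp408, Icos and Mtfr2 (r = 0.998, 0.996 and 0.992), and for Cxcr5 Lcn2, Gda and Anapc5 (r = 0.998 each). Ccrl2 was followed most closely by Tpst1, Pnpt1 and Slco3a1 (r = 0.998, 0.997 and 0.997). Cx3cr1 was most like Zfp74, Tbc1d12 and Selo (r = 0.988, 0.987 and 0.987), Ccr1 like Nudt22, Fos and Ccdc28b (r = 0.970, 0.960 and 0.944) and Ccr2 like Vamp1, Cd3eap and Rab37 (r = 0.972, 0.969 and 0.964). With 6 libraries such values are common: 438 to 728 genes had r above 0.9 with Cx3cr1, Ccr6, Cxcr4, Ccrl2 or Cxcr5, against 21 with Ccr1 and 61 with Ccr2.

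The ligands of these receptors were measured in the same libraries, and of 18 listed, 15 were tested and edgeR called 0 (0 higher and 4 lower at an unadjusted p under 0.05), with a median log2 fold change of -0.52. Cxcl12, the ligand of CXCR4, was 2.67, 5.66 and 2.64 CPM at 2 kPa and 0.342, 0.328 and 1.62 CPM at 50 kPa (-2.25 ± 0.70, edgeR adjusted p = 0.11). Its groups did not overlap, and low tension replicate 2 was highest for Cxcl12 and Cxcr4 alike. Cx3cl1, which encodes fractalkine, was 25.6, 44.0 and 42.5 CPM at 2 kPa and 24.5, 21.9 and 26.7 CPM at 50 kPa (-0.62 ± 0.22, edgeR adjusted p = 0.138), while its receptor had the higher mean at 50 kPa. Ccl2, the ligand of CCR2 and named after its values were seen, was 208 ± 51.9 and 142 ± 49.4 CPM (edgeR adjusted p = 0.256). Ccl20, Cxcl13 and Rarres2, the ligands of CCR6, CXCR5 and CCRL2, were the 3 that did not pass the filter, each below 0.1 CPM on average in both groups.

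Other receptors of the family gave 0 calls by edgeR among 8 tested of 10 listed, with 1 higher and 4 lower at an unadjusted p under 0.05 and a median log2 fold change of -1.16. Cxcr2, the neutrophil receptor for CXCL1 and CXCL2, was 45.9, 52.3 and 25.4 CPM at 2 kPa and 15.4, 19.3 and 20.3 CPM at 50 kPa (-1.17 ± 0.28, edgeR adjusted p = 0.0694). Every 2 kPa library was above every 50 kPa library, as in Cxcr4. Ccr7, the lymph node homing receptor of mature dendritic cells, named after its values were seen, was 316, 538 and 579 CPM at 2 kPa and 165, 141 and 309 CPM at 50 kPa (-1.22 ± 0.37, edgeR adjusted p = 0.106). Of 4 atypical receptors, which bind chemokines without G protein signalling, 2 were tested and edgeR called 0 (1 lower at an unadjusted p under 0.05). Ackr1, which binds many inflammatory chemokines, was 0.673, 1.78 and 0.751 CPM at 2 kPa and 0, 0.0299 and 0.231 CPM at 50 kPa (edgeR adjusted p = 0.0808). Ackr3, a scavenging receptor that shares CXCL12 with CXCR4, was 0.388 ± 0.131 and 0.541 ± 0.147 CPM.

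Genes that carry or end the receptors' signal gave 4 calls. Of 16 genes of G protein signalling and directed movement 1 fell and 0 rose, with a median log2 fold change of -0.10. Elmo1, the partner of Dock2 in activating the GTPase Rac, was 53.1, 55.8 and 54.8 CPM at 2 kPa and 38.5, 38.6 and 41.4 CPM at 50 kPa, thus 1.38-fold lower (-0.47 ± 0.08, edgeR adjusted p = 0.0392). Dock2 itself was 146 ± 5.98 and 124 ± 5.56 CPM (edgeR adjusted p = 0.152). Of 14 genes that desensitise receptors or speed the G protein's return to rest, 2 rose and 1 fell, with a median of -0.22. Grk5, a kinase that phosphorylates active receptors, rose from 16.8, 16.8 and 15.8 CPM to 23.2, 23.2 and 22.3 CPM (0.48 ± 0.09, edgeR adjusted p = 0.046). Rgs16, a GTPase activator for inhibitory G proteins, rose from 1.45 ± 0.944 to 10.4 ± 1.30 CPM (edgeR adjusted p = 0.0381). Rgs14, another GTPase activator, fell from 47.5, 46.9 and 52.1 CPM to 25, 25 and 34.4 CPM (-0.80 ± 0.15, edgeR adjusted p = 0.0481). Each of these 4 genes had groups that did not overlap. The calls rest on the replicates of both groups, since over all genes edgeR called 0 genes when high tension replicate 1 or 2 was left out, 1 gene when low tension replicate 2 was and 3 genes when low tension replicate 3 was.

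Among 11 receptors for other attractants 10 were tested, 1 fell and 0 rose, with a median log2 fold change of -0.20. S1pr4, a sphingosine 1-phosphate receptor of lymphoid and myeloid cells, was 7.43, 11.7 and 5.68 CPM at 2 kPa and 2.30, 2.66 and 3.07 CPM at 50 kPa, thus 3.08-fold lower (-1.62 ± 0.30, edgeR adjusted p = 0.0481). C3ar1, the receptor for complement C3a, was 163 ± 44.6 and 229 ± 15 CPM (edgeR adjusted p = 0.183). Gpr183, the oxysterol receptor that positions dendritic cells and B cells, was 23.9 ± 3.33 and 32.8 ± 8.45 CPM (edgeR adjusted p = 0.223).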

How the data were processed

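PolyA RNA of 6 samples was sequenced from a directional library kit, per the labels. The deposited values are raw read counts per gene symbol, 1 table per library, 24062 genes. The submitters' processing notes name HTSeq 0.6.1p2 as well as TopHat2 2.0.11, FastQC 0.11.2, edgeR (3.8.6 and 3.16.5) and the builds hg19 and mm10, with no role or order. Annotation and strand setting: not given in the sources used here.

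Groups follow the tension that each title names. The tests were run with edgeR 4.0.16 under R 4.3.3: filterByExpr (minimum count 10, minimum total 15), TMM scaling, glmQLFit and glmQLFTest, and Benjamini-Hochberg adjustment over all 13155 genes tested, with 0.05 as the threshold. The standard error is the log2 fold change over the square root of F. DESeq2 1.42.0 and limma 3.58.1 were used for alternatives. The fit was tested on simulated data. Log2 CPM for correlations used a prior count of 2. The named genes were the 9 receptors, in each list the called genes and at most 2 further genes of smallest p, given where they stand beside a receptor, and the 3 genes most like each tested receptor. A few genes that this rule gives are not reported here. The 13 marker lists were used for context. Of these B cell, neutrophil, monocyte, macrophage, migratory and defining dendritic cell, T and NK cell and plasmacytoid dendritic cell lists stand beside the receptors. The receptors and lists were chosen with earlier results of these data known. Alternatives were other scalings, filters and tests, replicate number as a block, summing high tension replicates 1 and 2, and leaving out each library. Summing a marker list without its most abundant gene was chosen after seeing the data. Python 3.11.15 and matplotlib 3.10.9 drew the plots.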

Additional observations from a re-analysis of the deposited data

How the results depend on the processing

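The count of 0 called receptors held under 3 other scalings, 2 other filters, robust fits, limma-voom, and when high tension replicates 1 and 2 were summed. The filter of at least 5 CPM in 3 libraries removed Ccr6, Cxcr5 and Cx3cr1, so it could not call them. DESeq2 called 4, and leaving out each library gave 0 to 1, the 1 being Cxcr5 without high tension replicate 3. Over all genes the main count of 454 went to 36 with at least 5 CPM in 3 libraries, 0 with high tension replicates 1 and 2 summed, 2372 with DESeq2, and 0 to 511 with 1 library left out. With total counts as the scaling, 77 genes were higher and 257 lower, beside 194 and 260, and the median over all genes moved from -0.028 to -0.162 on the log2 scale. Ccr1 changed sign to 0.04 with the summed replicates and ran from -0.11 to 0.05 with 1 library left out. Ccr2 changed sign to 0.02 with limma-voom and ran from -0.24 to 0.17 with 1 library left out. The cause was not tested.

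With replicate number as a block, edgeR called 1 receptor, Ccrl2 (-1.67, adjusted p = 0.0357), and 776 genes in all, and Ccr2 stood at 0.01. The labels do not say that numbers mark pairs. Deviations from the group means correlated at 0.54, -0.11 and 0.49 for numbers 1, 2 and 3. Low tension replicate 1 correlated best with high tension replicate 2 (0.59) and low tension replicate 2 with high tension replicate 3 (0.14). Low tension replicate 3 correlated best with its own number. These values do not settle whether numbers mark pairs. Cx3cr1, Cxcr4, Ccr6, Cxcr5 and Ccrl2 kept their direction in every alternative that tested them. For Ccr9 and Cxcr3 the depth limits any comparison.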

Other observations

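Low tension replicate 3, which held the highest Ccrl2 level, also had the lowest Ccr1 and Ccr2 levels, 314 and 116 CPM. The Pearson correlation of log2 CPM between Ccr2 and Ccrl2 was -0.56 over the 6 libraries, given as a description. Cxcl10, an interferon-induced ligand of CXCR3 named after its values were seen, was 318, 31.4 and 1690 CPM at 2 kPa and 14.5, 7.40 and 94.4 CPM at 50 kPa (edgeR adjusted p = 0.166). Its highest library in each group was replicate 3, as for Ccrl2. Cxcr3 itself had 2 and 3 counts in these libraries. Cmklr1, the signalling receptor for chemerin and named after its values were seen, was 86.9, 94.8 and 154 CPM at 2 kPa and 143, 144 and 185 CPM at 50 kPa (edgeR adjusted p = 0.238), so replicate 3 was highest in each group here too, while the mean was higher at 50 kPa.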
